A study of Mus musculus with 8 samples.

Results

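Hematopoietic growth factor receptors were examined in splenic myeloid cells of wt and myeloid-specific Lmna knockout mice. The members were chosen by name, and the rule used no measured value: Csf1r, Csf2ra, Csf2rb, Csf2rb2, Csf3r, Il3ra, Kit, Flt3, Il6ra and Ifngr1. Earlier results of these data were known when the members and the lists below were chosen. All 10 were found, each in 1 row, among the 23084 genes of the deposited table. RNA-sequencing was done on 8 samples, 2 in each of 4 groups, and every sample came from the spleen of a C57BL/6 mouse labelled as 6 to 8 weeks old. By title, the groups were wt CD11b+Ly6C+ (monocytic), wt CD11b+Ly6G+ (granulocytic), Lmna KO CD11b+Ly6C+ and Lmna KO CD11b+Ly6G+ cells, although the cell-marker label reads CD11b+Ly6C+ for every sample. No treatment is given in the labels. The knockout was made by crossing floxed Lmna mice with LysM-Cre mice, in which Cre is driven from the Lyz2 locus of myeloid cells, so that Lmna is deleted in cells that have switched on this promoter. Whether samples were single animals or pools is not stated in the sources used here.

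The table holds 1 comparison, wt against knockout, made by the authors, and that comparison was not used. What was used is the mean normalised count of each gene, an average by the authors of RSEM counts divided by DESeq2 size factors. It is 1 value per gene, with no value per sample, so no SD, no n and no test can be given. For depth, the study's methods give only a range of reads over the samples, not a value for each. Which samples were averaged is not stated. A difference between genotypes or between subsets therefore cannot be read from anything below. Because long transcripts collect more reads, levels were compared between genes as the mean normalised count per kb of merged exons. In sorted bulk RNA, a low level from all cells and a high level from few cells cannot be told apart.

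Receptors of this set carry the signals by which blood progenitors survive, divide and choose a lineage. The class I cytokine receptors (Csf2ra, Csf2rb, Csf2rb2, Csf3r, Il3ra and Il6ra) have no enzyme of their own and signal through JAK kinases and STAT factors. Csf1r, Kit and Flt3 are receptor tyrosine kinases of one subfamily, and Ifngr1 is a class II cytokine receptor. G-CSF and its receptor drive the formation of neutrophils, M-CSF and its receptor the formation of monocytes and macrophages, and Kit and Flt3 are mainly receptors of early progenitors.

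Csf3r, the receptor for G-CSF, had the highest level of the 10. Its mean normalised count was 76893, or 21306 per kb, at percentile 99.7 of the 12253 protein-coding genes ranked (those with a mean of at least 10). It held 66.3% of the summed per-kb level of the 10 receptors. Csf1r, the receptor for M-CSF and IL-34, came next with a mean normalised count of 22159, or 3838 per kb, at percentile 97.8. The per-kb level of Csf3r was 5.55 times that of Csf1r, and together they held 78.3% of the sum. Divided by the mean length of the coding transcripts, Csf3r was 2.55 times Csf1r, and 3.47 times with no length. The lowest receptor was Flt3. The level of Csf3r was 1131 times that of Flt3 by merged exons, 750.1 times by the longest transcript, 728 times by the mean coding transcript and 661 times with no length.

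**Figure D1:**
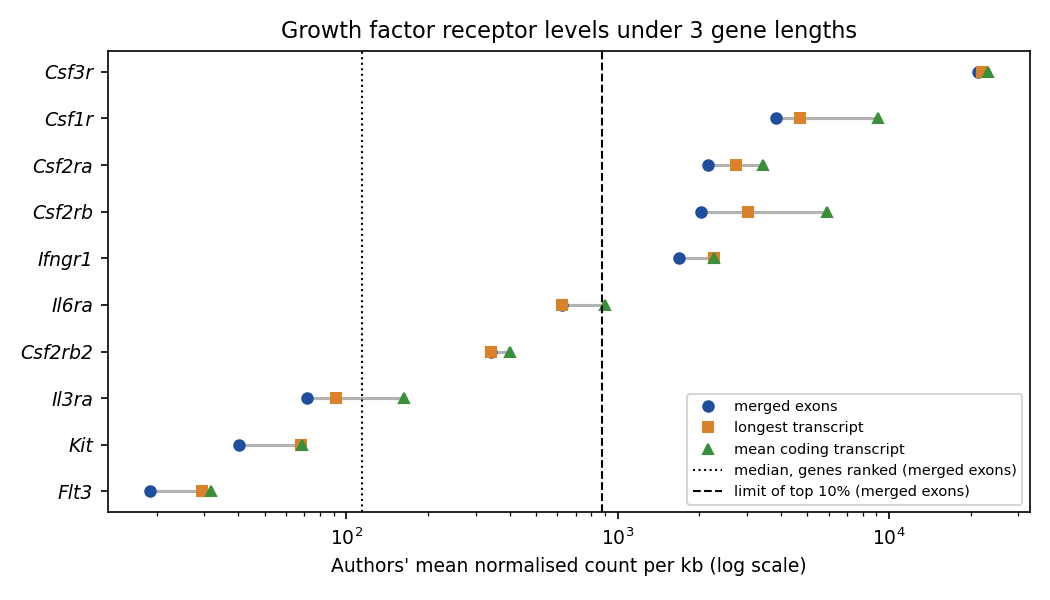
Mean normalised count per kb of each receptor on a log axis, with the count divided by the merged exons, the longest transcript or the mean coding transcript of the gene. Dotted and dashed lines mark the median (114 per kb) and the limit of the top 10% (875 per kb) of the genes ranked by merged exons. Csf3r stands apart at the top, 4 more receptors lie above the dashed line, and Il3ra, Kit and Flt3 lie to the left of the dotted line by merged exons.

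The receptors for GM-CSF followed. Csf2ra encodes the ligand-specific alpha chain and Csf2rb the common beta chain, which also serves IL-3 and IL-5. The mean normalised count was 6197 for Csf2ra, or 2158 per kb (percentile 96.1). For Csf2rb it was 14815, or 2036 per kb (percentile 95.9). The alpha and beta chains thus differed by a ratio of 1.06 per kb of merged exons, and the order turned with the length used. Divided by the longest transcript, Csf2rb was 1.11 times Csf2ra, and divided by the mean length of the coding transcripts it was 1.73 times Csf2ra. With no length, Csf2rb was 2.39 times Csf2ra. Of the 9 steps between neighbours in the order of the 10 receptors, this was the only one that changed direction among the 3 lengths. The other 8 kept theirs. With no length, the steps from Ifngr1 to Il6ra (ratio 0.884) and from Il3ra to Kit (ratio 0.592) turned as well.

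Mice carry a second beta chain, Csf2rb2, which pairs with the IL-3 receptor alone. Its mean normalised count was 1622, or 342 per kb (percentile 75.8), so that the common chain had 5.95 times its per-kb level. Divided by the longest transcript the ratio was 8.84, and by the mean coding transcript 14.8. Il3ra, the alpha chain of the IL-3 receptor, had a mean normalised count of 212, or 71.3 per kb, at percentile 39.4 and below the median of the genes ranked. Per kb, Csf2ra was 30.3 times and Csf2rb2 was 4.80 times the level of Il3ra. For Csf2rb2 this ratio was 2.44 by the mean coding transcript and 7.66 with no length. Il5ra, the alpha chain for IL-5, which uses the same common chain, had 43.7 per kb. By merged exons, the alpha chain for GM-CSF was thus near its beta chain in level. The alpha chains for IL-3 and IL-5 were far below this common chain.

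Csf2rb2 and Csf2rb lie 20030 bases apart on chromosome 15 of mm10, on opposite strands, from 78282507 to 78305721 (minus) and from 78325752 to 78353847 (plus). Their sequences are shown because reads of one can be assigned to the other. Over 2628 aligned coding bases of their longest complete coding transcripts in GENCODE M21, 125 differed, an identity of 95.2%. Of all distinct 50-base words of the annotated transcripts, 18.4% of those of Csf2rb2 and 12.3% of those of Csf2rb occur in the other gene. The 120 aligned coding bases with the most differences, 22 of them in capitals, run from coding base 309 to 428 in Csf2rb and from 312 to 431 in Csf2rb2. The longest run that is the same in both is 242 bases long, from coding base 2083 to 2324 in each.
Csf2rb: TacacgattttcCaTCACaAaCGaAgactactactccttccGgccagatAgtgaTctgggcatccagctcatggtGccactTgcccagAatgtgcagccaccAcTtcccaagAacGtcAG
Csf2rb2: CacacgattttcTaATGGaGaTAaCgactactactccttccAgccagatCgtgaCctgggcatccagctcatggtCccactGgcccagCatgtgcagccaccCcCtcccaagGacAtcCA
Shared run: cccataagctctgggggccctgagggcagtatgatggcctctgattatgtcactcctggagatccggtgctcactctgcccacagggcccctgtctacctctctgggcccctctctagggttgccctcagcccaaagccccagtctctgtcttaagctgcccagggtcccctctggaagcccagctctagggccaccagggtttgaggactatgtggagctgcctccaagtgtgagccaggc
A read of 50 bases from the shared run can be placed in neither gene alone, and one from the upper stretch can. RSEM divides such reads by an estimate, so the ratio of Csf2rb to Csf2rb2 is uncertain to that extent. Counted as 1 gene, the pair left 5 receptors in the top 10% of levels, as before.

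Csf3r shared 10.5% of its 50-base words with other annotated transcripts, and 8.84% of all its words occurred in 1 processed pseudogene, AC105061.2 on chromosome 19. For Csf1r, Csf2ra, Il3ra, Kit and Il6ra no such word occurred in another gene, and for Ifngr1 and Flt3 under 1% did. Csf1r overlaps Hmgxb3 on the opposite strand, whose mean normalised count was 462. Il6ra overlaps the antisense gene Gm42809, with a mean normalised count of 13.5, and Il3ra and Flt3 overlap the antisense genes Gm48860 and Gm26597, which were not analysed here. Whether strand was used in counting is not stated.

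Ifngr1, the ligand-binding chain of the interferon-gamma receptor, had a mean normalised count of 4777, or 1678 per kb (percentile 94.9). Ifngr2, its signalling chain, had 936 per kb (percentile 90.7), so that Ifngr1 had 1.79 times its per-kb level. Il6ra, the IL-6 binding chain, had a mean normalised count of 5401, or 625 per kb (percentile 86.2). Il6st (gp130), the signalling chain that Il6ra shares with several other cytokine receptors, had 109 per kb (percentile 49.0). Per kb the binding chain was 5.74 times the signalling chain of the IL-6 receptor, and 2.11 times when divided by the mean coding transcript. In both receptors the ligand-binding chain had the higher value under the 3 lengths.

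The progenitor receptors were the lowest of the kinases. Kit, the receptor for stem cell factor, had a mean normalised count of 358, or 40.1 per kb (percentile 28.0). Flt3, the receptor for FLT3 ligand, had 116, or 18.8 per kb (percentile 17.1). Csf1r was 95.7 times Kit and 204 times Flt3 per kb, within the same kinase subfamily. With no length, Csf1r was 62.0 times Kit and 190.5 times Flt3. Kit was 2.13 times Flt3, and this ratio stayed between 2.13 and 2.32 under the 3 lengths but was 3.07 with no length. Summed by class, the class I cytokine receptors held 82.6% of the per-kb level, the kinases 12.1% and Ifngr1 5.22%.

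Against all genes ranked, 7 of the 10 receptors lay above the median of 114 per kb and 5 lay in the top 10%, above 875 per kb. Their own median was 1151 per kb. The 3 below the median were Il3ra, Kit and Flt3. With no filter on low values Il3ra lay above it, at percentile 52.6. The 5 in the top 10% were Csf3r, Csf1r, Csf2ra, Csf2rb and Ifngr1.

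Marker genes of the cells that could be in the sort were set beside the receptors. Neutrophil markers were the highest list, with all 10 in the top 10% and a range from 8337 (Ly6g) to 1389954 per kb (S100a9). Monocyte markers ranged from 40.3 (Vcan) to 10760 per kb (Itgam, which encodes CD11b and is also high in neutrophils), with a median of 445 and Ly6c2 at 5260. Of the neutrophil markers, 9 of 10 were above the highest monocyte marker. The markers of neutrophils thus stood above those of monocytes. Granulocytes within the CD11b+Ly6C+ gate and CD11b+Ly6G+ samples within the mean cannot be told apart. The level of Csf3r lay between those of Cxcr2 (13062 per kb) and Mmp9 (33500 per kb). Macrophage markers had a median of 4893 per kb, from 2084 (Adgre1) to 9704 (C1qb). Csf1r lay inside this range, and also inside those of the monocyte, B-cell, and erythroid and platelet markers. B-cell markers had a median of 1347 per kb. The part of any of these cells in the receptor levels was not tested.

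Of the cells that carry the low receptors, early progenitors were marked by Elane at 1720 per kb, Mpo at 1190 and Cd34 at 9.32, with a list median of 794 per kb. The mast cell and basophil list, whose cells carry Kit and the IL-3 receptor, had a median of 33.5 per kb, with Cpa3 at 41.6 and Prss34 at 304. Eosinophil markers, from cells that carry Il5ra, had a median of 187 per kb, from 43.7 (Il5ra, itself in the list) to 859 (Ccr3). Conventional dendritic cell markers, from cells that carry Flt3, had a median of 26.7 per kb, from 3.77 (Xcr1) to 542 per kb (Itgax). Zbtb46 had 5.52 per kb, and the plasmacytoid list had a median of 33.1. T and NK cell markers had a median of 70.5 per kb, and erythroid and platelet markers one of 111 per kb. The globin genes of the last list were far higher, with Hbb-bs at 11172 and Hba-a1 at 5741 per kb.

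**Figure D2:**
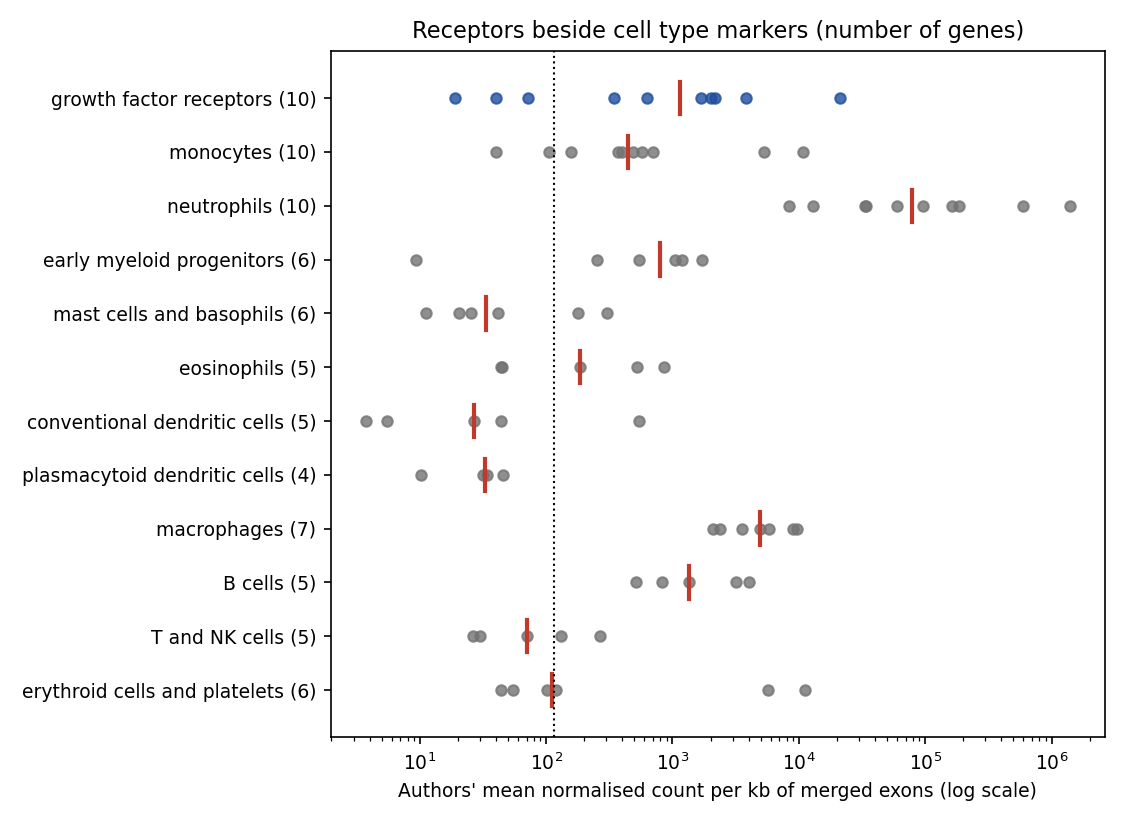
Each point is 1 gene at its mean normalised count per kb of merged exons (log axis), in rows for the 10 receptors and for 11 lists of cell type markers, and red bars are list medians. The dotted line marks the median of all genes ranked. Neutrophil markers reach furthest to the right, and Csf3r is the one receptor among them.

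Of the ligands of these receptors, 3 reached the ranked range. Csf1, the M-CSF gene, had 433 per kb (percentile 80.4), Flt3l had 92.9 and Kitl, which encodes stem cell factor, had 38.3. Csf2, Csf3, Il6, Ifng and Il34 had mean normalised counts of 0.345, 0.317, 5.62, 6.50 and 1.46, under the minimum of 10 that was ranked, and Il3 and Il5 were not analysed here. Csf1 was thus the 1 ligand above the median of all genes.

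The signalling genes behind the receptors were mostly high. All 14 kinases and STATs were above the median and 10 were in the top 10%, with a list median of 1359 per kb. Fgr, a Src-family kinase of phagocytes, was highest at 4856 per kb, and Lyn, a further member of that family, had 3000. The lowest were Stat5a (126) and Tyk2 (262). Jak2, the kinase bound by the common beta chain, had 673 per kb, and Csf2rb had 3.03 times that level by merged exons and 7.10 times by the mean coding transcript. Of the STATs named for these receptors, Stat3 had 973 and Stat5b 1048 per kb. Of 14 adaptors and signal inhibitors, 10 were above the median and 6 in the top 10%. The highest were Ptpn6, which encodes the phosphatase SHP-1, at 6300 per kb, the adaptor Grb2 at 2384 and Socs3, the inhibitor of Csf3r and Il6st signalling, at 1874. Cish, an inhibitor induced through STAT5, had 29.6 per kb and Socs2 had 5.72, the lowest values of that list.

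Of 18 partner and related receptors, 15 were ranked, 8 were above the median and 6 in the top 10%. The highest were Il10ra (1239 per kb), Il4ra (1200) and Il2rg (1015). Pdgfrb, a kinase of the subfamily of Csf1r, had 3.67 per kb. The median of this list was 126 per kb, against 1151 for the 10 growth factor receptors.

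**Figure D3:**
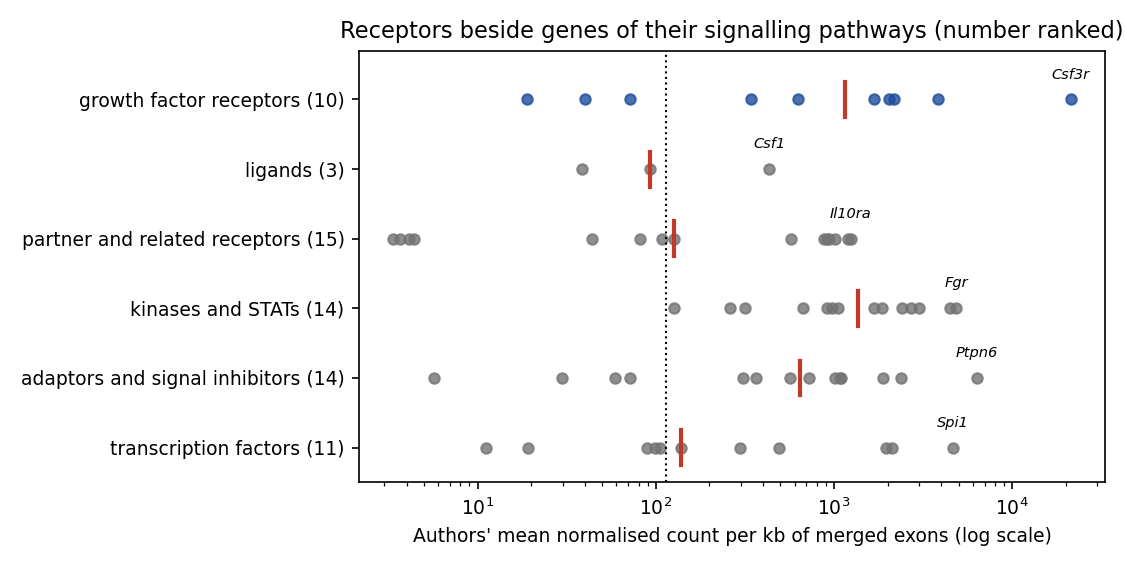
Each point is 1 ranked gene at its mean normalised count per kb of merged exons (log axis), in rows for the receptors and for 5 lists of their pathways, with the highest gene of each row named. Red bars are medians and the dotted line the median of all genes ranked. The kinases and STATs all lie to the right of the dotted line, and 2 of the 3 ranked ligands lie to its left.

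Promoters were read for the members in the RefSeq table of GRCm38.p6, from 250 bases before to 50 after the annotated start. Of the 10 members, 8 matched, and Csf1r and Csf2rb did not. Those of the highest receptor (Csf3r), of the GM-CSF alpha chain and of the lowest receptor (Flt3) are shown. Letters bound by factors known to act in blood cells were searched on both strands, and matches are in capitals. GAGGAA is bound by PU.1 and other ETS factors. RUNX factors bind TGTGGT. The letters taken for C/EBP factors were TTGCNNAA, where N is any base. GATA factors bind AGATAA. No matches overlapped one another.
Csf3r (chr4:126024409-126024708, plus strand): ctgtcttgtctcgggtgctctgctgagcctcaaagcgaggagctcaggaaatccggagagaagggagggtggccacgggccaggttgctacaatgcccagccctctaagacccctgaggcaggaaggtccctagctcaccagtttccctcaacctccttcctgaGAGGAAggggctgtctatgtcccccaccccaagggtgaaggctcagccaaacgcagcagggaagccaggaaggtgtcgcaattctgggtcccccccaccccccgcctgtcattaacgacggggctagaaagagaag
Csf2ra (chr19:61228369-61228668, minus strand): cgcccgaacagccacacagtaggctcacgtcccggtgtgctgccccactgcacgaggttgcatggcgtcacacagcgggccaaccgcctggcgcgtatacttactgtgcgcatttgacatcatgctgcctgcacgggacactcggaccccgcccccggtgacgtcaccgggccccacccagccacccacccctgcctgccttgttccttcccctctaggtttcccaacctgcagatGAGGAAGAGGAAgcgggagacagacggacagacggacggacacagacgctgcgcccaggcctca
Flt3 (chr5:147400440-147400739, minus strand): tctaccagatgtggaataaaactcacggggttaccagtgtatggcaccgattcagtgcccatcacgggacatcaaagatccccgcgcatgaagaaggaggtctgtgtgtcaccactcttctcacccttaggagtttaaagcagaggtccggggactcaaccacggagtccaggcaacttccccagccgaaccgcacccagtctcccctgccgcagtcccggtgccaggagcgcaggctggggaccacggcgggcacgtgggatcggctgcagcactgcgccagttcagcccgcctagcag
GAGGAA was found in the promoters of Csf3r (86 bases before the start), Csf2ra (14 and 8 bases before), Csf2rb2, Il6ra and Kit, or 5 of 8 genes, and in 28.3% of the 32851 promoters of the table. It was not found in those of Flt3, Il3ra and Ifngr1. TTGCNNAA was found in Il3ra alone of the 8 genes (10.8% of all promoters), AGATAA in Il6ra alone (11.2%) and TGTGGT in none (16.8%). The 5 genes with GAGGAA ranged from 40.1 (Kit) to 21306 per kb (Csf3r), and the 3 without from 18.8 (Flt3) to 1678 per kb (Ifngr1), so that the levels of both sets overlapped.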

How the data were processed

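Per the study's methods and the submitters' processing notes, adapters were removed by the authors (cutadapt 1.14), mapping to mm10 was done in STAR 2.5.2b, gene quantification in RSEM 1.3.0 with the M12 release of GENCODE, and the comparison in DESeq2 1.20.0. The deposited signal is the authors' mean per gene of counts divided by size factors, summing to 25236459 over all genes. The table also holds the log2 fold changes, standard errors, test scores, p-values, adjusted p-values and signed fold changes of the authors' comparison, which were not used. A count test was foreseen in the design only for values per sample, so none was run.

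Gene models came from GENCODE M21 (mm10), in which 23004 of 23084 identifiers were found. The mean signal was divided by merged exon length. Of 28 symbols with several rows, the row with the highest mean was kept. Ranks cover 12253 protein-coding genes with a mean of at least 10. Ranking and word comparison were tested on simulated data (Python 3.11.15, pandas 2.3.3, Biopython 1.88). Protein sequences were not used here.

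Members and lists were chosen with earlier results of these data known. Named were all members, the 3 highest and 2 lowest genes of each pathway list, and genes that pair with a member, although not every gene of this rule is reported here. Stat3, Stat5b, Cish, the marker genes and the promoter letters were chosen after levels were seen.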

Additional observations from a re-analysis of the deposited data

How the results depend on the processing

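No paired analysis was possible because each gene has a single mean over samples. The genotype test, its DESeq2 alternative and its repeats without single replicates could not be run either, and the spread between samples is unknown. There were 7 alternatives, for length, genes ranked, repeated symbols and the Csf2rb pair. Under them the count of receptors above the median (7) ranged from 6 to 8 and the count in the top 10% (5) from 5 to 6. The count of 6 arose only where Csf2rb and Csf2rb2, both above the median, were counted as 1 gene. Csf3r held 66.3% of the summed level of the receptors by merged exons, 61.4% by the longest transcript, 51.0% by the mean coding transcript, 58.0% with no length and 65.6% with Csf2rb and Csf2rb2 as 1 gene. Percentiles moved most for Il3ra (32.3 to 52.6), Flt3 (16.5 to 35.2) and Csf2rb2 (63.0 to 81.1), and least for Csf3r (99.4 to 99.8). Gene models of GENCODE M12, on which counting rested, were not used here and can differ in length from those of M21.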

Other observations

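Of 11 transcription factors known to act on receptor genes in blood cells, 6 were above the median of all genes ranked and 3 in the top 10%. Spi1, which encodes PU.1, was highest at 4622 per kb of merged exons, followed by Cebpb (2111) and Cebpe (1952), the latter a factor of late granulocyte maturation. Irf8 and Cebpa had 489 and 298 per kb. Myc had 138, Klf4 105, Runx1 98.6 and Gfi1 89.1 per kb. The lowest were Gata1 (19.2) and Gata2 (11.1), factors of erythroid, mast and early progenitor cells.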
